A study of Homo sapiens with 4 samples.

Results

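The 7 genes described here, DUSP4, DUSP5, DUSP6, SPRY2, SPRY4, ERRFI1 and PHLDA1, were grouped as feedback inhibitors of the RAS-ERK pathway. They were chosen by name, with earlier results of these data known, and each was taken as a window on the hg19 build made of the gene and about 20 kb on either side. The windows are 29170 to 29229 kb on chromosome 8 (DUSP4), 112237 to 112292 kb on chromosome 10 (DUSP5), 89721 to 89767 kb on chromosome 12 (DUSP6), 80890 to 80936 kb on chromosome 13 (SPRY2), 141669 to 141725 kb on chromosome 5 (SPRY4), 8051 to 8107 kb on chromosome 1 (ERRFI1) and 76399 to 76446 kb on chromosome 12 (PHLDA1). The study mapped the kinase CDK8 by chromatin immunoprecipitation and sequencing in HCT116, an established human colorectal cancer cell line. Of its 4 samples, 3 are CDK8 libraries with a deposited peak list: 1 from cells kept 24 h in normoxia and 2, labelled replicates 1 and 2 and called hypoxia 1 and hypoxia 2 here, from cells kept 24 h in hypoxia at 1% oxygen. All 3 used the same antibody lot, and no genetic change or drug is named for any of them. The fourth is input DNA and was not analysed here. The windows held 39 of the 19862 normoxia peaks, 47 of the 21993 peaks of hypoxia 1 and 43 of the 14256 peaks of hypoxia 2. Peaks of the 3 lists that touch or overlap were joined into 28150 regions, of which 47 lay in the windows.

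Growth factor receptors switch on RAS, which passes the signal through RAF and MEK to the kinase ERK. Active ERK phosphorylates transcription factors that switch on, among other genes, inhibitors of the same pathway, so that a burst of signalling is damped by its own products. DUSP4, DUSP5 and DUSP6 are phosphatases that take the activating phosphates off ERK and related kinases. SPRY2 and SPRY4 are Sprouty proteins, which restrain signalling between the receptor and RAF, and ERRFI1 (also called MIG6) binds and inhibits the EGF receptor itself. PHLDA1 is a pleckstrin homology-like protein induced by growth factors. CDK8 is the kinase of a detachable module of Mediator, the complex that bridges transcription factors and RNA polymerase II.

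The windows allow an approximate placement of each gene. Taking 20 kb off each edge gives a gene span that is 0.67 to 1.42 kb longer than the RefSeq length of the gene, so the 5′ end used here is good to about that distance if the flanks measure 20 kb. Orientation was read from RefSeq for 5 genes and taken from general knowledge for DUSP4 and DUSP5. RefSeq, on GRCh38.p14, places long non-coding genes beside or across every window's gene except DUSP6, among them DUSP5-DT, ERRFI1-DT, SPRY4-AS1, SPRY4-IT1 and PHLDA1-AS1. It places the protein-coding gene NAP1L1 near PHLDA1. It also lists POC1B-DUSP6, a transcript unit that runs into DUSP6. A peak between such neighbours cannot be assigned to either one from these lists.

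The DNA just upstream of the annotated starts is shown for 4 of the genes, because their best-ranked CDK8 peaks lay at or near their 5′ ends. ERRFI1 and PHLDA1 had the highest ranks, DUSP6 slightly lower ranks, and SPRY2 was the gene with the least CDK8. Each line gives the 250 bases before the RefSeq start on GRCh38.p14, read 5′ to 3′ in the direction of the gene. Peaks are on hg19 and were not laid onto these letters. Capitals mark matches to the motifs searched on both strands, and lower case marks all other bases. The ERRFI1 stretch is chr1:8026310-8026559, the PHLDA1 stretch chr12:76031777-76032026, the DUSP6 stretch chr12:89352502-89352751 and the SPRY2 stretch chr13:80341127-80341376, all on the minus strand.
ERRFI1: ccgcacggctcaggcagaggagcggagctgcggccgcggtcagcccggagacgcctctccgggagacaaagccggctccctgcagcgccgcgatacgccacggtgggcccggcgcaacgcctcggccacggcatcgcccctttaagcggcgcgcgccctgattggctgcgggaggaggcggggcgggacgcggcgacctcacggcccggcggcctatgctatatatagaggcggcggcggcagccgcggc
PHLDA1: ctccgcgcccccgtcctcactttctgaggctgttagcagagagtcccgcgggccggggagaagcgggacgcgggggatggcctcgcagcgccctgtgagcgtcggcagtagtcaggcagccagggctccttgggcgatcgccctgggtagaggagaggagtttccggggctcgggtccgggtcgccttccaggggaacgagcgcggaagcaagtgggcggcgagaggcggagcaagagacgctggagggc
DUSP6: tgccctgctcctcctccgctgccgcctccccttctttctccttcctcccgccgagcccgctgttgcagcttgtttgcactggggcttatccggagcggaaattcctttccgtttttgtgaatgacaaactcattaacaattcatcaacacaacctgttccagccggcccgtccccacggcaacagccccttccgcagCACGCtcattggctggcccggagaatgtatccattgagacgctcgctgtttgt
SPRY2: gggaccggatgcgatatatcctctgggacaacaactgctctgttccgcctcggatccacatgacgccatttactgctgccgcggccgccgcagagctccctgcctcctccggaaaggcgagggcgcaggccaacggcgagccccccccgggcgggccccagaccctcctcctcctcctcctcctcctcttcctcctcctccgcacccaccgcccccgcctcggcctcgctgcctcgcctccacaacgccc

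The motifs were AP-1 (TGANTCA), the cyclic AMP response element (TGACGTCA), ETS (CCGGAAG), the serum response element by its name, the hypoxia response cores ACGTG and GCGTG, and the TATA box (TATAAA). The single match in these 4 stretches was a GCGTG on the opposite strand of DUSP6 (CACGC as printed), 53 to 49 bases before its start. Only these letters were searched. Close variants, such as the tatatata near the end of the ERRFI1 stretch, were not counted, so a stretch without a match may still hold such an element. GCGTG was present in 32.2% of all 35116 RefSeq promoter stretches of this length, and ACGTG in 18.5%. Among the stretches of protein-coding genes GCGTG was present in 38.3%. ETS was present in 8.52%, AP-1 in 6.57%, the TATA box in 10.7%, the cyclic AMP response element in 1.65% and the serum response element in 1.16%. The SPRY4 stretch and the other SPRY2 starts in RefSeq held no match either, which says only that these letters are not in these windows. The ERRFI1 stretch was the richest of those shown in G and C, at 75.2%, against 70.4% for PHLDA1 and SPRY2 and 57.2% for DUSP6. The median was 58.0% over all stretches and 62.0% over those of protein-coding genes.

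CDK8 was listed at all 7 genes in normoxia and in hypoxia 1, and at 6 of them in hypoxia 2, which had no peak in the SPRY2 window. A region in all 3 lists was found in 6 of the 7 windows, against 11.1% of the 59715 tiles of 50 kb that cover the span of the lists. Together the windows span 365 kb. Normoxia peaks covered 8.78% of that length, peaks of hypoxia 1 covered 9.66% and those of the other hypoxia library 10.49%, against 0.308%, 0.272% and 0.200% of the whole span of the lists. The tiles and the span of the lists were not matched for genes, whereas each window was set around a gene. The genes were proposed from these lists, so this density is a description and no test. The best-ranked region of each gene, the only region in the case of SPRY2, lay over the approximate 5′ end or within 0.236 kb of it. Distances this short are below the uncertainty of the 5′ ends. Many other peaks lay farther away: of the 47 regions in the windows, 15 lay downstream of the genes. At ERRFI1, 3103 of the 9021 bp under normoxia peaks lay within 2 kb of the approximate 5′ end. The map of peaks by library shows the best-ranked region over the approximate 5′ end at ERRFI1, PHLDA1 and SPRY4. At DUSP4, DUSP5, DUSP6 and, outside hypoxia 2, SPRY2 it lies close beside that end.

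**Figure D1:**
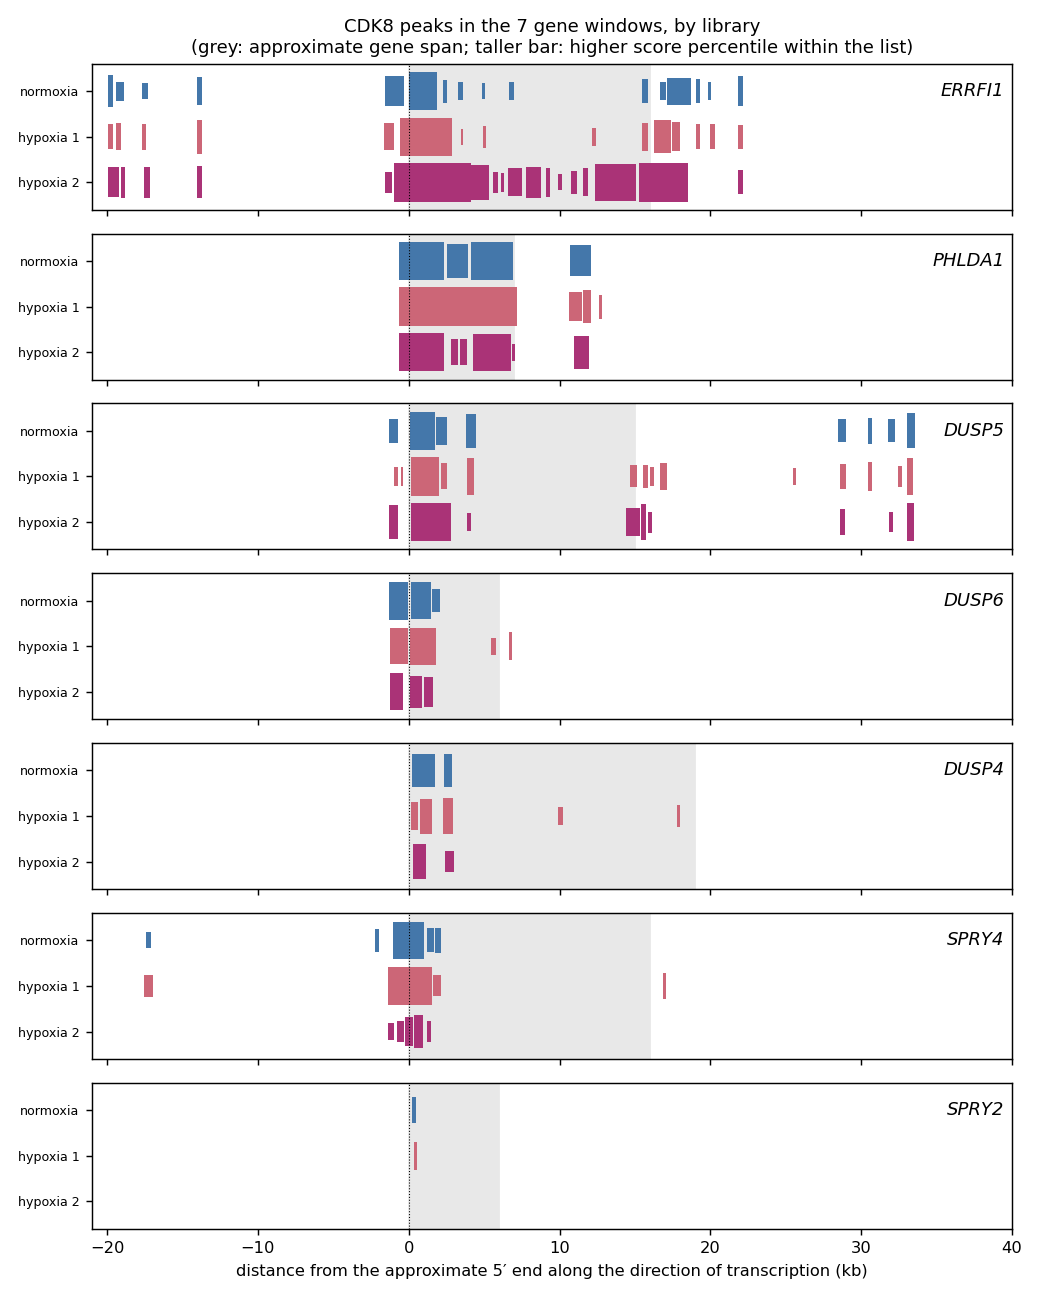
CDK8 peaks in the 7 gene windows, 1 row per library, plotted by distance in kb from the approximate 5′ end along the direction of transcription. Grey marks the approximate gene span, and a taller bar has a higher score percentile in its list. ERRFI1 is covered nearly end to end in hypoxia 2 alone, PHLDA1 is covered along its gene span in all 3 libraries, and SPRY2 has 1 narrow peak in 2 of the libraries.

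The score of a peak is the authors' own value, on an unstated scale, and it is used here only as a percentile within its list, where 100 is the best peak. The lists differ in length, so a percentile gives a peak's standing within its library, and a gap between libraries does not show a change in binding. With 1 normoxia library no test between the conditions was run. The gap between the hypoxia replicates is the only error available, and nothing in the labels says whether they came from separate cultures.

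PHLDA1 and ERRFI1 carried some of the best-ranked CDK8 peaks of the whole study. The best PHLDA1 peak stood at percentile 99.7 in normoxia, 99.2 in hypoxia 1 and 99.2 in hypoxia 2. At ERRFI1 the best peak stood at 99.8, 98.4 and 99.9 in the same order. The spread of ERRFI1 contains that of PHLDA1, so the pair cannot be ordered. The ERRFI1 peak of hypoxia 2 was number 14 by score among 14256.

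The ERK phosphatases came next and differed among themselves. The best DUSP5 peak, at the nuclear phosphatase specific for ERK, stood at 98.7 in normoxia and at 97.5 and 99.2 in hypoxia 1 and hypoxia 2. Its range overlaps that of ERRFI1. DUSP6, the cytoplasmic ERK phosphatase, followed at 95.7, 92.2 and 91.9, below every value of DUSP5. DUSP4, another nuclear phosphatase of this family, stood at 73.3 in normoxia and at 85.4 and 81.1 in hypoxia, below every value of DUSP6. For DUSP6 and DUSP4 the best peak of hypoxia 1 lay in another region than that of normoxia and hypoxia 2. The region that was best in those libraries stood in hypoxia 1 at 88.2 for DUSP6 and 82.9 for DUSP4.

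The Sprouty genes were lowest or least even. The best SPRY4 peak stood at 94.9 in normoxia and 94.3 in hypoxia 1, but at 71.6 in hypoxia 2, a range that overlaps both DUSP6 and DUSP4. SPRY2 stood at 42.2 in normoxia and 53.1 in hypoxia 1. Both SPRY2 values are below every value of the other 6 genes.

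**Figure D2:**
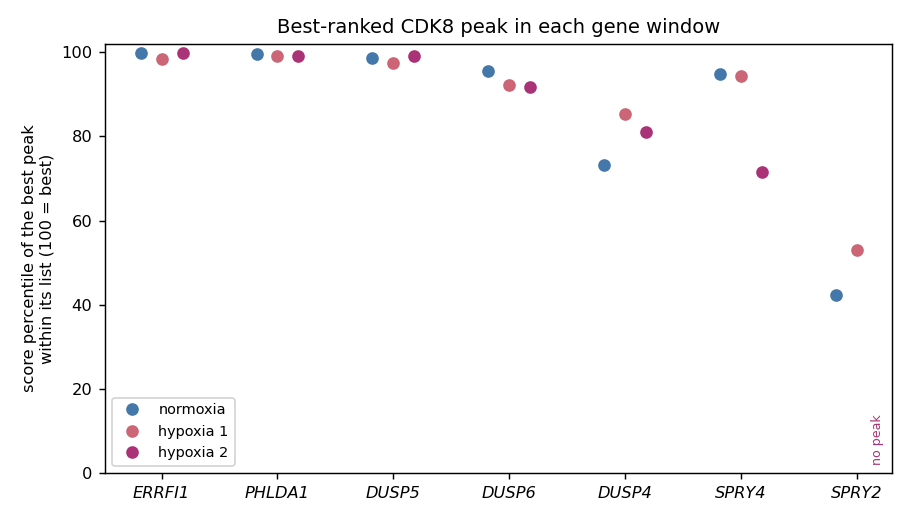
Score percentile of the best CDK8 peak in each gene window (vertical axis, 100 is the best peak of its list), 1 point per library. ERRFI1, PHLDA1 and DUSP5 lie at or above 97.5 in each library, while SPRY2 lies at 42.2 and 53.1 and has no peak in hypoxia 2.

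ERRFI1 held the most CDK8 peaks of the 7 genes: 16 in normoxia, 15 in hypoxia 1 and 18 in hypoxia 2. The length under peaks in its window was 9.02 kb in normoxia, 9.07 kb in hypoxia 1 and 18.4 kb in hypoxia 2. Hypoxia 2 thus stood apart, and the other hypoxia library was close to normoxia.

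The excess lay inside the gene. Peaks covered 3405 bp of the 16 kb approximate gene span in normoxia (21.3%), 3901 bp in hypoxia 1 (24.4%) and 12410 bp in hypoxia 2 (77.6%). In the upstream flank the covered length was 2785, 2545 and 3134 bp in that order, and in the downstream flank 2831, 2624 and 2821 bp. The flanks therefore differed little between libraries, and the gene span differed between hypoxia 2 and both others.

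Over the ERRFI1 span, hypoxia 2 listed 12 peaks in a run of 19.5 kb with no gap wider than 647 bp. Normoxia listed 6 peaks over the span, with a gap of 8492 bp, and hypoxia 1 listed 5, with a gap of 7007 bp. The mean percentile of these peaks, weighted by width, was 63.0 in normoxia, 82.0 in hypoxia 1 and 85.1 in hypoxia 2. Both other libraries had peaks at the ends of the gene and a few narrow ones in its interior, and left most of the span uncovered.

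The run in hypoxia 2 had broad peaks at both ends. A peak of 5060 bp lay over the 5′ end (8082894 to 8087953 on chromosome 1) and was the second widest of its list. A peak of 3269 bp (8068456 to 8071724) at percentile 98.7 lay at the 3′ end, and one of 2769 bp (8071914 to 8074682) at 93.0 lay just inside it. Normoxia had no ERRFI1 peak wider than 2 kb, its widest being 1878 bp, and hypoxia 1 had 1, of 3442 bp.

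Set against the rest of the lists, the ERRFI1 length of hypoxia 2 was 2.04 times that of normoxia and 2.02 times that of hypoxia 1. Among 7133 tiles of 50 kb with a peak in every list, 2.16% had a ratio to normoxia at least as high and 8.40% a ratio to hypoxia 1 at least as high. The median ratios over these tiles were 0.779 and 0.945. None of all 59715 tiles held 18.4 kb under peaks of hypoxia 2, though the ERRFI1 window, at 56 kb, is somewhat wider than a tile. ERRFI1 had the highest value of both ratios among the genes described here, which were chosen with these lists known. The tile shares therefore describe ERRFI1 and are no test. The difference held with fewer peaks: in the better-scoring 50% of each list the gene span was covered to 11.7%, 20.4% and 70.6%, and with lists of equal length to 15.7% and 20.4% in normoxia and hypoxia 1, hypoxia 2 being the shortest list and so unaltered (these settings were chosen after the data were seen). Read depth is unknown, and its part in the result was not tested.

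**Figure D3:**
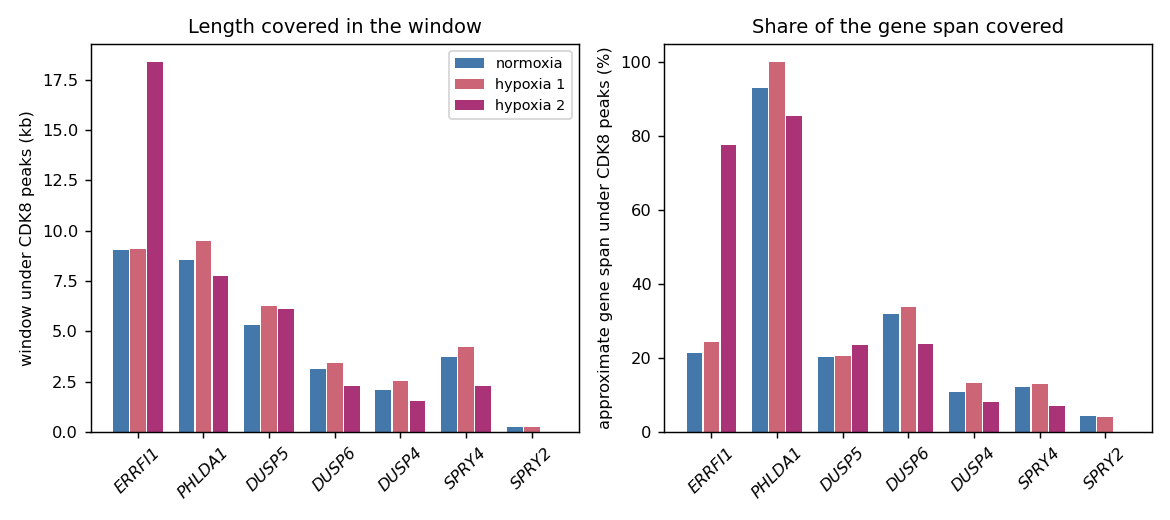
Length of each gene window under CDK8 peaks in kb (left) and share of the approximate gene span under peaks in percent (right), 1 bar per library. ERRFI1 reaches 18.4 kb and 77.6% in hypoxia 2 against 9.02 kb and 21.3% in normoxia, and PHLDA1 is covered to at least 85.6% in each library.

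PHLDA1 was the gene with CDK8 along nearly its whole length in every library. Peaks covered 93.1% of its 7 kb approximate span in normoxia, 100% in hypoxia 1 and 85.6% in hypoxia 2. Joined over the lists they formed 1 region of 7883 bp (76418789 to 76426671 on chromosome 12), which was a single peak in hypoxia 1, the second widest of that list. Normoxia split it into 3 peaks, among them 2988 bp at percentile 99.7 over the 5′ end and 2782 bp at 95.4 towards the 3′ end. Hypoxia 2 split it into 5, with 2978 bp at 99.2 and 2497 bp at 93.4 in nearly the same places. The libraries thus shared the extent of the region and differed in how it was cut.

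A further PHLDA1 region lay 11.4 kb downstream of the approximate 5′ end (76413907 to 76415368), beyond the gene. It stood at 66.2 in normoxia, 73.1 in hypoxia 1 and 75.9 in hypoxia 2. The length under peaks in the PHLDA1 window was 8.55, 9.499 and 7.74 kb, with normoxia between the hypoxia libraries.

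DUSP5 had a broad region at its 5′ end and a scatter of weaker ones at and beyond its 3′ end. The 5′ region spanned 2684 bp (112257114 to 112259797 on chromosome 10) and was listed as 1 peak of 2646 bp in hypoxia 2 and as 2 peaks in each other list. A neighbour inside the gene (112260787 to 112261472) stood at 79.8 in normoxia and 89.9 in hypoxia 1 but at 9.77 in hypoxia 2. A region just upstream (112255727 to 112256288) showed the reverse among the hypoxia replicates, at 9.99 and 78.1, with normoxia at 33.3. In both regions normoxia lay between the hypoxia libraries.

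Downstream of DUSP5, 33.3 kb from its approximate 5′ end, lay a region with even ranks (112290013 to 112290548), at 83.6, 89.96 and 92.6. Another at 28.7 kb (112285492 to 112285985) stood at 30.7, 40.3 and 43.7. Normoxia was the lowest of the 3 libraries in both. The window held 8 normoxia peaks, 14 of hypoxia 1 and 9 of hypoxia 2, covering 5.31, 6.27 and 6.11 kb.

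At DUSP6 all 3 libraries listed a pair of neighbouring regions around the 5′ end. The one just upstream (89747062 to 89748280 on chromosome 12) stood at 95.7 in normoxia, 88.2 in hypoxia 1 and 91.9 in hypoxia 2. The one inside the gene (89744896 to 89746920) stood at 93.6, 92.2 and 69.7. Normoxia ranked highest in both. Hypoxia 1 alone had 2 more regions near the 3′ end, at percentiles 52.9 and 3.89. Covered length was 3.14, 3.44 and 2.28 kb.

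DUSP4 likewise carried a pair of regions in the first few kb of the gene. The one at the 5′ end (29207264 to 29208838 on chromosome 8) stood at 73.3 in normoxia, 82.9 in hypoxia 1 and 81.1 in hypoxia 2. The next (29206018 to 29206752) stood at 72.6 and 85.4 in normoxia and hypoxia 1 and at 22.7 in hypoxia 2. Hypoxia 1 alone listed 2 narrow regions deeper in the gene, at 24.2 and 8.48. Covered length was 2.06, 2.51 and 1.52 kb.

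SPRY4 had 1 region in all 3 libraries, 3552 bp over its 5′ end (141702832 to 141706383 on chromosome 5). In normoxia and hypoxia 1 it held a peak wider than 2 kb, of 2085 and 2904 bp. In hypoxia 2 it was broken into 5 peaks, none wider than 581 bp, with a best percentile of 71.6. Covered length in the window was 3.72, 4.22 and 2.27 kb. The region at SPRY2 (80915425 to 80915764 on chromosome 13) was 340 bp wide, 253 bp in normoxia and 239 bp in hypoxia 1. For both Sprouty genes hypoxia 2 was the low library. This was not particular to them: hypoxia 2, the shortest list, also had the least covered length at DUSP4, DUSP6 and PHLDA1. At DUSP5 its covered length lay between those of the other libraries, and at ERRFI1 it was the highest.

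Of the 47 regions in the windows, 19 (40.4%) were in all 3 lists, against 33.0% of all 28150 regions. ERRFI1 gave 7 of the 19, DUSP5 gave 5, DUSP4, DUSP6 and PHLDA1 gave 2 each, SPRY4 gave 1 and SPRY2 none. Without ERRFI1, 12 of 29 regions were in all 3 lists. Of the 19 regions, 6 were wider than 2 kb, against 2.14% of all regions in 3 lists, and 3 ranked at or above percentile 90 in every list, against 8.32%. The 6 wide ones were those at the 5′ ends of PHLDA1, ERRFI1, SPRY4 and DUSP5, the one at the 3′ end of ERRFI1 (8068261 to 8071724) and the one inside DUSP6. Single peaks wider than 2 kb numbered 3 in normoxia, 3 in hypoxia 1 and 6 in hypoxia 2. Peaks of that width made up 0.584%, 0.514% and 0.393% of the whole lists in the same order.

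By single peaks, 30 of 39 normoxia peaks in the windows (76.9%, Wilson 95% interval 61.7 to 87.4) overlapped both hypoxia lists, against 47.7% of all normoxia peaks. For hypoxia 1 the share overlapping both other lists was 27 of 47 (57.4%, 43.3 to 70.5), against 44.3%, and for hypoxia 2 it was 29 of 43 (67.4%, 52.5 to 79.5), against 67.9%. The intervals cover counting error only, and neighbouring peaks of a gene are not independent: ERRFI1 gave 16 of the 39 normoxia peaks. The genes were chosen with these lists known, so the intervals are no test against the whole lists. The normoxia share was 28.2% when an overlap of 50% of both peaks was required and 51.3% with peak centres within 500 bp. The whole-list share under those rules was not computed. The share for hypoxia 2 was near its background.

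Regions in both hypoxia lists and not in normoxia, the pattern a gain under hypoxia would give, numbered 3 of 47, against 3.18% of all regions. A pair of them lay next to each other at the 3′ end of DUSP5 (112271433 to 112272304 and 112272387 to 112273238), at percentiles 25.9 and 33.2 in hypoxia 1 and 56.5 and 84.0 in hypoxia 2. The other lay inside ERRFI1 (8071914 to 8074869), at 8.48 in hypoxia 1 and 93.0 in hypoxia 2, where it was part of the run described above. With lists of equal length 0 of these 3 kept the pattern. The 1 region that then had it was another, in the upstream flank of ERRFI1 (8104177 to 8104687), which was in all 3 lists as deposited.

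A single region was in normoxia alone, against 13.2% of all regions. It lay 2.10 kb upstream of the approximate 5′ end of SPRY4 (141706940 to 141707266), at percentile 32.0. Hypoxia 2 alone held 7 regions, against 5.46%, and all 7 were inside ERRFI1. Hypoxia 1 alone held 10, against 22.6%, at DUSP5 (4), DUSP4 (2), DUSP6 (2), SPRY4 (1) and PHLDA1 (1). Normoxia shared 5 regions with hypoxia 1 only, against 15.9%, and 2 with hypoxia 2 only, against 6.65%.

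Among the 19 regions of all 3 lists, normoxia ranked above both hypoxia libraries in 6 (34.7% of all such regions did), below both in 8 (23.6%) and between them in 5 (41.7%). At ERRFI1 normoxia ranked below both in 4 of 7 regions, at DUSP6 above both in 2 of 2. With lists of equal length the counts above and below were 6 and 6. The gap between the hypoxia percentiles had a median of 10.8 over the 19 regions, against 17.6 over all regions in 3 lists. It was as wide as 80.2, at the DUSP5 region that hypoxia 2 ranked at 9.77. Hypoxia 1 ranked above hypoxia 2 in 8 of the 19, against 60.7% of all.

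**Figure D4:**
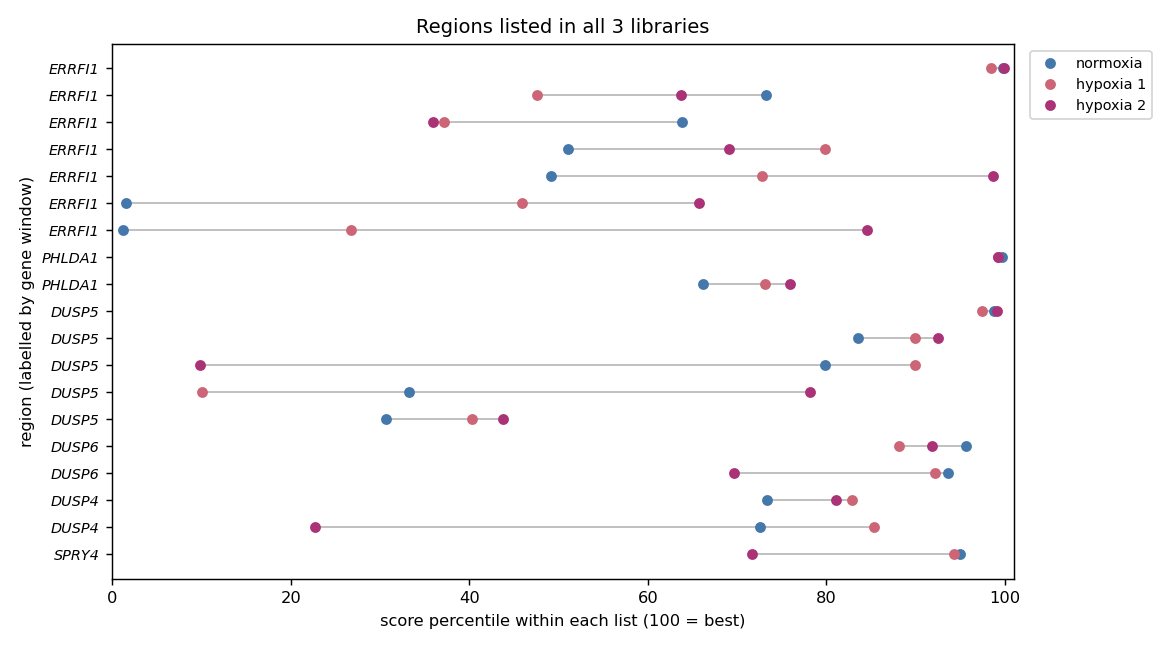
Score percentile within each list (horizontal axis, 100 is the best peak) of the 19 regions found in all 3 libraries, 1 line per region, labelled by gene, with a point per library. The best regions of ERRFI1, PHLDA1 and DUSP5 have tight points near 100, and a pair of ERRFI1 regions lies at 1.24 and 1.48 in normoxia but at 84.6 and 65.8 in hypoxia 2.

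Of the 8 regions in which normoxia ranked below both hypoxia libraries, the 4 with the widest gaps were at ERRFI1. A region inside the gene (8081706 to 8082839) stood at 1.24 in normoxia, 26.8 in hypoxia 1 and 84.6 in hypoxia 2. One in the upstream flank (8104177 to 8104692) stood at 1.48, 45.9 and 65.8, and the 3′ region (8068261 to 8071724) at 49.2, 72.8 and 98.7. Another upstream region (8100680 to 8101037) stood at 51.1, 79.9 and 69.1. The remaining pair of flank regions went the other way, at 73.3, 47.5 and 63.8 (8105792 to 8106954) and at 63.8, 37.1 and 35.9 (8064814 to 8065192). Inside the gene and in its 3′ region, the gap between the hypoxia libraries exceeded that between normoxia and hypoxia 1.

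Regions near a window edge are counted or not by where the edge was set. The last ERRFI1 region ended 0.046 kb inside the edge, and the next one, 0.727 kb outside, stood at 31.7 in normoxia and 8.28 in hypoxia 1. At DUSP5 the last region ended 1.45 kb inside, and the next began 3.76 kb outside, in hypoxia 2 alone at 69.1. At DUSP4 a region began 1.79 kb outside, at 20.9 in normoxia and 19.2 in hypoxia 1, and at DUSP6 one began 2.40 kb outside, in hypoxia 1 alone at 22.9. At SPRY4 the last region ended 2.48 kb inside, at 0.780 in normoxia and 29.4 in hypoxia 1.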

How the data were processed

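Of the 4 samples, the 3 CDK8 libraries have peak lists and the input library was not analysed here. Each list deposited by the authors gives positions, a peak name and a score per peak, on a scale and above a threshold that the sources used here do not give. The submitters' processing notes name CASAVA 1.8.2, Bowtie 0.12.7, MACS2 2.0.9 and FastQC and the build GRCh37/hg19, with no role or setting. The lists are named as merged, without saying what was merged. Read depth is unknown.

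The 7 genes, the windows and all lists were chosen with earlier results of these data known. Peaks were assigned to a window by an overlap of at least 1 bp, positions count from 1, and peaks that touch or overlap were joined. A region takes its best peak in each list. Named regions are those in all 3 lists, those in both hypoxia lists only, those in normoxia alone and those wider than 2 kb. Tiles of 50 kb ran from the first to the last peak of each chromosome. With 1 normoxia and 2 hypoxia libraries, the smallest exact permutation p is 0.333, so none was computed. A wider list of ERK pathway genes was not used here, as no hg19 annotation was at hand. Joining and overlap were tested on simulated lists. Promoter stretches come from RefSeq on GRCh38.p14, which holds entries for 5 of the 7 genes (not DUSP4 and DUSP5). Alternatives were shorter lists, narrower windows, other joining and overlap rules, and leaving out a hypoxia library. Analyses used Python 3.11.15, numpy 2.4.6, pandas 2.3.3, scipy 1.17.1 and matplotlib 3.10.9.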

Additional observations from a re-analysis of the deposited data

How the results depend on the processing

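The better-scoring 50% of each list gave 18, 20 and 26 peaks in the windows in normoxia, hypoxia 1 and hypoxia 2, 29 regions, 10 of them in all 3 lists, 1 in both hypoxia lists only, and 4 with normoxia ranked below both hypoxia libraries. Equal list sizes of 14256 peaks gave 1 region in both hypoxia lists only and 2 in normoxia alone. In neither setting was the region in both hypoxia lists only among the 3 of the deposited lists: each was an ERRFI1 region that is in all 3 lists as deposited. With equal list sizes the lowest percentile of the best region became 62.9 for DUSP4, 96.1 for DUSP5, 81.7 for DUSP6 and 98.8 for PHLDA1. Joining peaks within 500 bp gave 30 regions, 1 of them in both hypoxia lists only, and 91.9 for DUSP6. Windows narrowed by 10 kb at each end left 4 regions with normoxia ranked below both. The share of normoxia peaks overlapping both hypoxia lists was 28.2% when an overlap of 50% of both peaks was required and 51.3% with peak centres within 500 bp. Without the ERRFI1 window, a setting chosen after the data were seen, 29 regions were left, 12 of them in all 3 lists. Leaving out hypoxia 1 or hypoxia 2 gave, by construction, 42 to 44 regions, 24 to 27 in every remaining list, 11 to 14 in the remaining hypoxia list only, 7 and 3 in the normoxia list only, 12 and 10 with normoxia ranked above and 12 to 17 below, and a share of 82.1% to 92.3%. The lowest percentile of the best region was then 98.7 and 97.5 for DUSP5, 91.9 and 92.2 for DUSP6, 71.6 and 94.3 for SPRY4, 99.8 and 98.4 for ERRFI1, 99.2 and 99.2 for PHLDA1 and 73.3 in both cases for DUSP4. Fewer peaks, fewer libraries and other rules change counts by their construction. Any further cause was not tested. Of 90 alternative values, 55 stayed within 1.5 times a count, within the spread of the hypoxia libraries or within the interval of a share. No paired analysis was possible because the groups share 1 replicate number at most and no test was run. A peak missing from a list may lie just under its threshold.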

Other observations

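A pair of strong CDK8 regions lay just beyond the windows. One began 11.1 kb outside the upstream edge of the SPRY4 window (141736116 to 141737557 on chromosome 5) and stood at percentile 99.8 in normoxia, 99.8 in hypoxia 1 and 98.4 in hypoxia 2, above the best SPRY4 region in each library. The other lay 16.4 kb outside the upstream edge of the DUSP5 window (112219769 to 112220564 on chromosome 10), at 96.8, 94.6 and 86.7. Which gene either belongs to was not tested. The SPRY2 peak lay in a long stretch with few others: beyond its window the next peak on the side of the gene's 5′ end was 3260 kb away in normoxia, 6099 kb in hypoxia 1 and 6840 kb in hypoxia 2. On the other side it was 834 kb away in normoxia and in hypoxia 1 and 275 kb away in hypoxia 2. These regions were picked after their values were seen.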
